A study of Cervus nippon with 12 samples.

Results

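The miR-23, miR-27 and miR-24 names were followed through chondrogenesis of antler cells. All names with the number 23, 24 or 27 and any letter or arm were taken, which gave 8 of the 545 listed miRNA names: miR-23a, miR-23b-3p, miR-23b-5p, miR-24-3p, miR-24, miR-27a-3p, miR-27a-5p and miR-27b. They are cattle (bta-) names, as are 475 of the 545, used for reads of sika deer. Small RNA was sequenced from 12 libraries of wild-type cells from antler tips of adult male deer, 3 in each of 4 groups. Reserve mesenchyme cells (RMCs) are the stem-like cells of the growing antler tip. They were taken at day 0 (CP_0), day 7 (CP_7) or day 14 (CP_14) of chondrogenic induction, done as pellets in chondrogenic medium. CP_0 was thus the group without induction, and the methods do not say whether its cells were pelleted. Cultured antler chondrocytes (CC) formed the other group. All cells were cultured, none was genetically altered, and the chondrocytes received no induction named in the labels.

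MicroRNAs of these families are made in clusters. In mammals miR-23a, miR-27a and miR-24 are processed from one transcript, miR-23b, miR-27b and miR-24 from another, and the same mature miR-24 is produced by both. Each hairpin is cut into a 5p and a 3p arm. In these families the 3p arm is the guide, the strand that is usually kept by Argonaute, and the 5p arm is the passenger, which is usually degraded. Members of the clusters are known in cartilage and bone for acting on regulators of differentiation such as RUNX2. The guide names were miR-23a, miR-23b-3p, miR-24-3p, miR-27a-3p and miR-27b, and the rarer arms were miR-23b-5p, miR-27a-5p and miR-24. The names miR-23a, miR-24 and miR-27b carry no arm in the files, and the arm was not checked against a sequence. miR-24 was paired with miR-24-3p as the other arm on that basis. miR-23a and miR-23b, and miR-27a and miR-27b, differ in few bases, so the counting may have split reads between them or counted a read on both.

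Levels are given as RPM, the reads on a name per 1000000 reads on all listed names. Depth ran from 539455 to 1032029 reads in CP_7, from 2791559 to 4097304 in CP_0 and CP_14, and from 9714090 to 10256572 in CC. A count of 0 allows up to 0.292 RPM in the deepest library and up to 5.56 in the shallowest (3 reads). The 8 names took 5.79% ± 0.59 (SD, n = 3) of all reads in CP_0, 7.77% ± 1.63 in CP_7 and 4.34% ± 0.58 in CP_14, against 3.03% ± 0.43 in CC. miR-21-5p, the most abundant name, took 60.3% ± 1.2, 23.2% ± 1.6, 48.2% ± 5.0 and 75.2% ± 2.0 in the same order, and its share enters every other RPM value. Fold changes between groups were therefore taken after TMM composition factors, and ratios between names were taken within a library, where no scaling enters. RPM sums of markers of other cells also differed, between groups or between libraries of a group. The 3 red blood cell names (miR-451, miR-486 and miR-144, the last at 0 to 2 reads in each library) summed to between 3486 and 5167 RPM in CP_14 and between 1387 and 1459.7 in CC, but to at most 145 RPM in CP_7. In CP_0 they reached 4192 RPM in replicate 3 against 11.8 RPM in the lowest library. Their reads summed to between 13472 and 14423 in CP_14, between 13825 and 14964 in CC, and 15245 in CP_0 replicate 3. Their RPM thus differed between CP_14 and CC where their reads hardly did, as CC was deeper. The 4 muscle names summed to between 4536 and 6633 RPM in CP_7 and to at most 1756 RPM elsewhere. With TMM factors the gap was smaller, between 2169 and 3937 in CP_7 and at most 1803 elsewhere. The 2 endothelial names reached 3083 RPM in CP_7 replicate 3 against 188 RPM in the lowest CP_7 library. The 3 chondrocyte names (miR-140, a miRNA of cartilage, and both arms of miR-455) were between 9043 and 11415 RPM in all 12 libraries. After TMM factors they summed to between 5083 and 5764 in CP_7, 9851 and 10281 in CP_14, 10559 and 11399 in CP_0, and 16883 and 18399 in CC, so that they set CP_7 and CC apart on that scale and not on the RPM scale. The part of these other cells in the results below was not tested, and in such bulk samples fewer cells of a type and less of a miRNA per cell cannot be told apart.

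miR-27b was the most abundant of the 8 names and ranked between 4 and 6 among all listed names in every library. It held 73.8% ± 0.3 of the reads of the 8 names in CP_0, 67.4% ± 0.6 in CP_7 and 62.7% ± 0.3 in CP_14, against 75.0% ± 0.9 in CC. Its RPM was 47454, 38451 and 42153 in CP_0, 45863, 46155 and 64999 in CP_7, 29124, 29428 and 23037 in CP_14, and 19622, 22105 and 26524 in CC. On this scale the CP_0 and CP_7 libraries lay above all CP_14 and CC libraries, while CP_0 overlapped CP_7 and CP_14 overlapped CC.

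miR-27a-3p, the guide of the other cluster's miR-27, had a different profile. It was at 4799, 3589 and 4129.7 RPM in CP_0, 10366, 9771 and 14922 in CP_7, 5059, 5052 and 3732 in CP_14, and 696, 883 and 1054 in CC. The CC libraries lay below every RMC library and the CP_7 libraries lay above all others.

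miR-24-3p, shared by both clusters, was at 6903, 5803 and 6139.6 RPM in CP_0, 6299, 6008 and 8642 in CP_7, 7872, 7700.4 and 6257 in CP_14, and 3431, 3770.2 and 4296 in CC. On the RPM scale the 3 RMC groups overlapped and CC lay below them. After TMM factors CP_7 was lowest, and CC lay between CP_7 and the other RMC groups without overlap.

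miR-23a was at 2758, 2511 and 2548 RPM in CP_0, 3747, 3643 and 4835 in CP_7, 2796, 2818 and 2205 in CP_14, and 1443, 1466 and 1623 in CC. miR-23b-3p was at 1598, 1446 and 1453 RPM in CP_0, 2087, 2026 and 2894 in CP_7, 1592, 1568 and 1192 in CP_14, and 1004, 1055 and 1146 in CC. On the RPM scale both miR-23 guides were highest in CP_7 and lowest in CC, and CP_0 overlapped CP_14. After TMM factors the group means of both were lowest in CP_7. On that scale miR-23a was highest in CP_0 and miR-23b-3p in CC. In RPM, CP_7 replicate 3 was the highest library for each of the 5 guides.

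The rarer arms covered a wider range. miR-27a-5p was at 636, 573 and 565 RPM in CP_0, 156, 111 and 163 in CP_7, 202, 205 and 185 in CP_14, and 239, 241 and 278 in CC. No 2 groups overlapped, and CP_7 was lowest, where its guide was highest. miR-24 was at 18.2, 11.96 and 15.4 RPM in CP_0, 113, 136 and 81.6 in CP_7, 29.4, 25.8 and 19.1 in CP_14, and 10.1, 12.9 and 12.3 in CC. miR-23b-5p was at 3.03, 5.13 and 6.60 RPM in CP_0, 24.7, 18.4 and 22.2 in CP_7, 1.07, 1.65 and 0.776 in CP_14, and 3.02, 2.37 and 4.41 in CC. Both were highest in CP_7. miR-23b-5p rested on 3 to 5 reads in each CP_14 library, at the limit that a count of 0 allows.

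**Figure D1:**
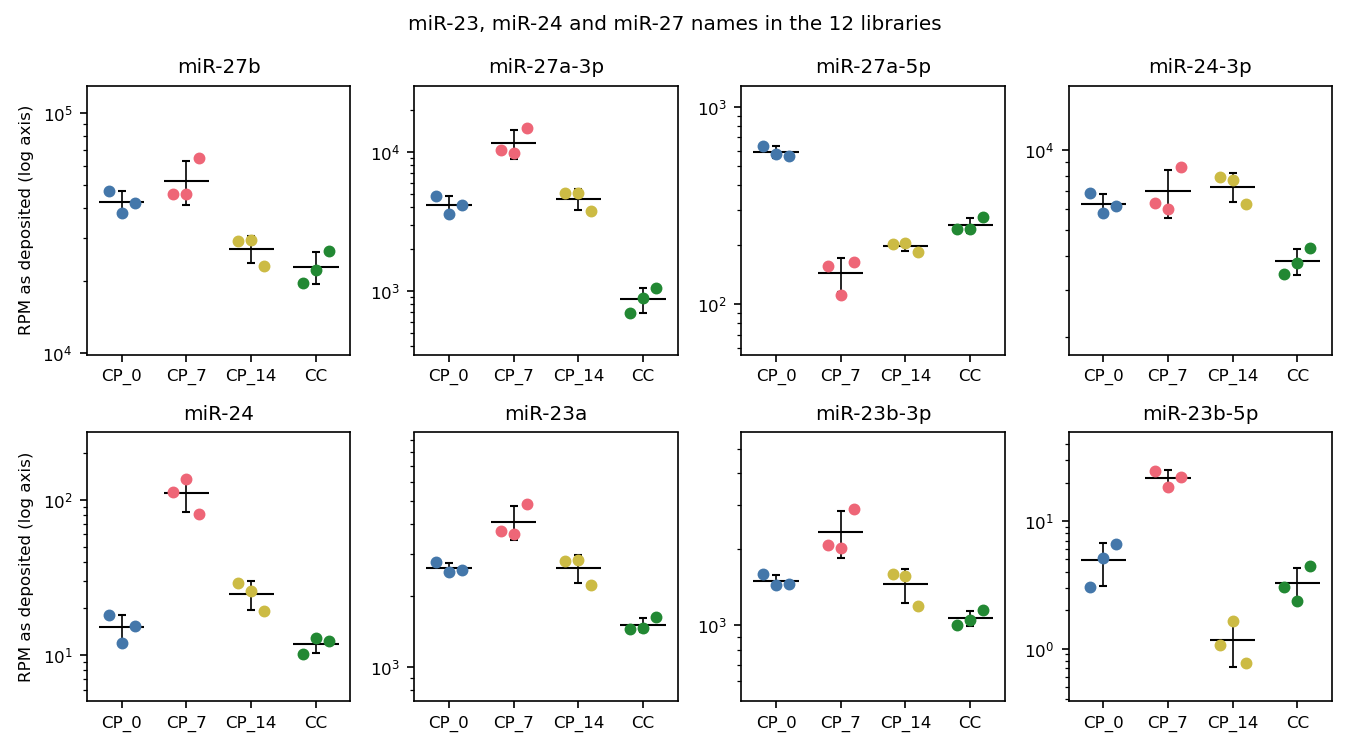
Deposited RPM (log axis) of the 8 names in the 12 libraries. Points are libraries, horizontal bars are group means and error bars are SD (n = 3). miR-27a-3p was highest in CP_7 and lowest in CC, whereas miR-27a-5p was lowest in CP_7 and highest in CP_0.

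The share of the passenger arm in miR-27a differed among all 4 groups. miR-27a-5p made up 11.7%, 13.8% and 12.03% of the reads of both miR-27a arms in CP_0. In CP_7 its share was 1.48%, 1.13% and 1.08%, in CP_14 it was 3.83%, 3.91% and 4.72%, and in CC it was 25.6%, 21.4% and 20.9%. The group means were 12.5% ± 1.1, 1.23% ± 0.22, 4.15% ± 0.49 and 22.6% ± 2.6 (SD, n = 3). The lowest share rested on 88 reads of miR-27a-5p in CP_7 replicate 3, with a 95% Clopper-Pearson interval from 0.868% to 1.33%, and the highest on 2453 reads in CC replicate 1, from 24.7% to 26.5%. These intervals cover counting error only, because without molecular identifiers PCR copies count as separate reads. Put as reads of the guide per read of the passenger, the means were 7.04 ± 0.68 in CP_0, 81.9 ± 13.5 in CP_7 and 23.3 ± 2.7 in CP_14, against 3.46 ± 0.48 in CC.

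The log2 ratio of the arms was tested with a two-sided exact permutation test over all 369600 arrangements of the 12 libraries into 4 groups of 3. For miR-27a the p was 6.49e-05, the smallest these arrangements can give, and 4.5e-04 after Benjamini-Hochberg adjustment over the 21 arm pairs with a mean of at least 10 reads for the rarer arm. The background was high, as 13 of the 21 pairs (61.9%) passed. The group means of miR-27a spanned 4.56 on the log2 scale, or 23.5-fold, which was the widest span of the 21 pairs, against a median span of 1.80.

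miR-23b had the next widest span, 3.45 on the log2 scale (10.9-fold). miR-23b-5p made up 0.189%, 0.353% and 0.452% of the miR-23b reads in CP_0, 1.17%, 0.900% and 0.763% in CP_7, 0.0674%, 0.105% and 0.0651% in CP_14, and 0.300%, 0.224% and 0.384% in CC. CP_7 was highest and CP_14 lowest, without overlap with another group, and CP_0 and CC overlapped. The exact permutation p was 5.2e-04 and the adjusted p 0.00136. The interval of each CP_14 library reached the share in CP_0 replicate 1, with upper ends of 0.197%, 0.246% and 0.190%. That of CP_14 replicate 2 also reached the share in CC replicate 2. The interval of CP_7 replicate 3, from 0.395% to 1.33%, held the share in CP_0 replicate 3. These libraries were thus not apart beyond counting error. The shares rested on 3 to 5 reads of miR-23b-5p in each CP_14 library and 12 to 19 in each CP_7 library.

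miR-24 made up 0.262%, 0.206% and 0.250% of the miR-24 reads in CP_0, 1.76%, 2.21% and 0.935% in CP_7, 0.372%, 0.334% and 0.305% in CP_14, and 0.295%, 0.340% and 0.286% in CC. Its span was 2.71 on the log2 scale (6.53-fold), rank 5 of the 21 pairs, with an exact permutation p of 1.9e-04 and an adjusted p of 8.2e-04. CP_7 was highest and CP_0 lowest, each without overlap with another group, and CP_14 and CC overlapped.

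**Figure D2:**
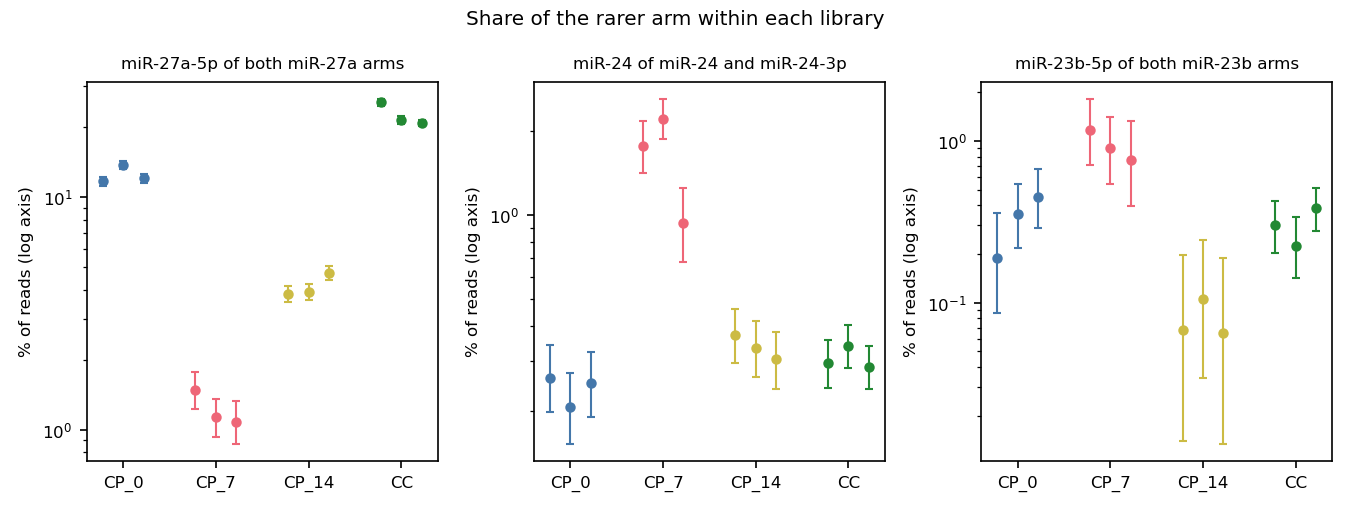
Share of the rarer arm among the reads of both arms (percent, log axis) in each library for miR-27a, miR-24 and miR-23b. Error bars are 95% Clopper-Pearson intervals. In CP_7 the share was at its lowest for miR-27a (1.23% ± 0.22) and at its highest for miR-24 and miR-23b.

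The 3 pairs thus did not move the same way at day 7. In limma fits on the log2 arm ratio, a test chosen after seeing the data, the ratio of the rarer arm to the guide fell by 3.52 for miR-27a between CP_0 and CP_7 (SE 0.18, adjusted p = 1.6e-05). Over the same days it rose by 2.71 for miR-24 (SE 0.33, adjusted p = 7.1e-04) and by 1.58 for miR-23b (SE 0.34, adjusted p = 0.0077), while 52.4% of the 21 pairs passed. Between CP_7 and CP_14 each turned back. The ratio rose by 1.80 for miR-27a and fell by 2.22 for miR-24 and 3.45 for miR-23b, and 42.9% of the pairs passed. From CP_0 to CP_14 the differences were -1.72 for miR-27a, -1.87 for miR-23b and 0.49 for miR-24, all with an adjusted p below the threshold of 0.05, as in 33.3% of the pairs. From CP_14 to CC it rose by 2.75 for miR-27a (adjusted p = 3.1e-05) and by 1.77 for miR-23b (adjusted p = 0.0014), with 61.9% of the pairs passing. For miR-24 the difference was -0.14 (SE 0.12, adjusted p = 0.29).

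**Figure D3:**
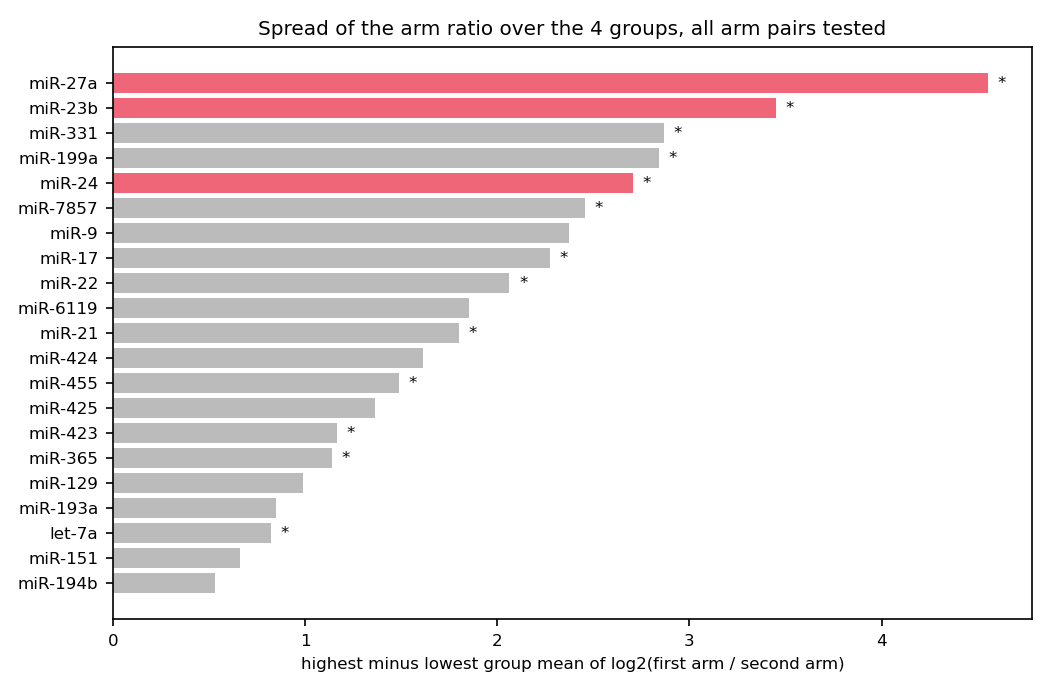
Difference between the highest and the lowest group mean of the log2 ratio of the arms for all 21 arm pairs tested. The pairs of miR-27a, miR-23b and miR-24 are red, other pairs grey, and asterisks mark an adjusted exact permutation p below 0.05. miR-27a (4.56) and miR-23b (3.45) had the widest spans and miR-24 (2.71) ranked 5.

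Both letters of miR-27 were also compared within each library, as they come from different clusters. There were 9.89, 10.7 and 10.2 reads of miR-27b per read of miR-27a-3p in CP_0, 4.42, 4.72 and 4.36 in CP_7, 5.76, 5.82 and 6.17 in CP_14, and 28.2, 25.02 and 25.17 in CC. No 2 groups overlapped. The means spanned 2.54 on the log2 scale (5.80-fold), with an adjusted exact permutation p of 2.0e-04 over 68 pairs of letters, of which 91.2% passed. This span ranked 10 of 68, against a median of 1.05.

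In contrast, miR-23a and miR-23b-3p kept nearly the same proportion. There were 1.74 ± 0.014 reads of miR-23a per read of miR-23b-3p in CP_0, 1.75 ± 0.073 in CP_7 and 1.80 ± 0.047 in CP_14, against 1.41 ± 0.024 in CC. The span was 0.35 on the log2 scale (1.27-fold) and ranked 66 of the 68 pairs. The pairs ranked 67 and 68, miR-6529a with miR-6529b and miR-26a with miR-26c, had group mean log2 ratios between 0 and 0.006. Those names may hold the same reads, which was not checked. It still passed the test, with an adjusted exact permutation p of 0.0077, and CC lay below all RMC libraries.

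Between day 0 and day 7 all 8 names passed the test after TMM normalization, 3 higher and 5 lower in CP_7, where 63.8% of the 246 names tested passed (35.8% higher and 28% lower). With a 2-fold change required as well, 109 names passed, and none of the guides was among them. All 8 had groups without overlap on the TMM scale, as did 67.9% of the names tested. miR-27a-5p fell by 3.12 on the log2 scale (SE 0.14, limma with Benjamini-Hochberg adjusted p = 3.4e-06), and 1.22% of the names tested had a lower value. miR-24-3p fell by 0.94 (SE 0.11, adjusted p = 2.4e-04), miR-27b by 0.79 (SE 0.11, adjusted p = 6.5e-04), miR-23b-3p by 0.45 (SE 0.11, adjusted p = 0.0091) and miR-23a by 0.44 (SE 0.090, adjusted p = 0.0039), but all 4 values were positive with library size as the only scaling. miR-24 rose by 1.73 (SE 0.27, adjusted p = 0.0010). The values of the remaining pair were 1.02 for miR-23b-5p (adjusted p = 0.039) and 0.40 for miR-27a-3p (adjusted p = 0.031).

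The scaling carried much of this comparison. With library size as the only scaling the median of all names tested moved from 0.07 to 1.12 and the calls from 88 higher and 69 lower to 152 higher and 20 lower. The 4 falling guides had values of 0.63 (miR-23a), 0.62 (miR-23b-3p), 0.14 (miR-24-3p) and 0.28 (miR-27b) there, each below the median of 1.12. miR-27a-3p was above the median under TMM (0.40 against 0.07), under upper-quartile factors (0.05 against -0.24), with library size only (1.47 against 1.12) and with no normalization (-0.76 against -1.04), but its sign was negative with no normalization. A change of scaling shifts the abundant names and the median by nearly the same amount. These places relative to the median are therefore not separate support from each scaling. The call of miR-27a-3p was lost when CP_0 replicate 2 or 3 or any CP_7 library was left out (adjusted p between 0.079 and 0.14), and that of miR-23b-5p without any library but CP_0 replicate 3 (adjusted p between 0.075 and 0.18). Both calls were also lost with RLE factors (adjusted p = 0.073 for miR-27a-3p and 0.058 for miR-23b-5p), with upper-quartile factors (0.76 and 0.14) and with totals that left out miR-21-5p (0.11 and 0.086). That of miR-27a-3p was lost with factors from the names that passed the filter (0.085), and that of miR-23b-5p with DESeq2 (0.10) and without a filter (0.088). miR-24 lost its call with no normalization (0.61, adjusted p = 0.22).

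**Figure D4:**
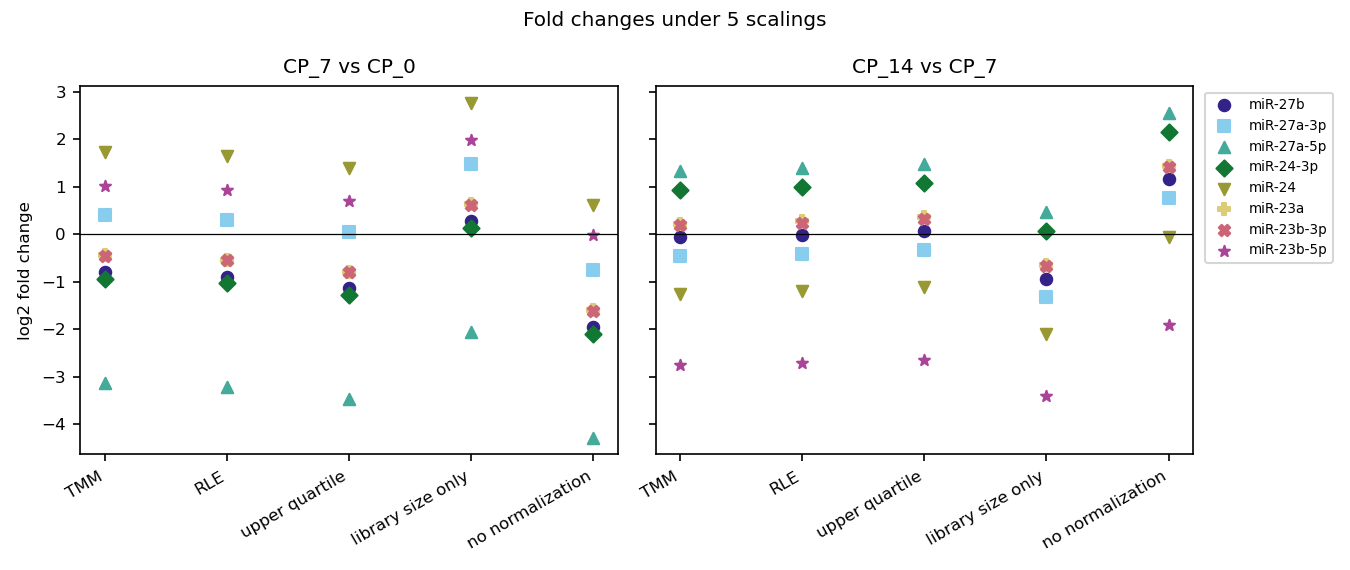
Log2 fold change of the 8 names for CP_7 against CP_0 and CP_14 against CP_7 under 5 scalings, 1 symbol per name. A change of scaling shifts all names by nearly the same amount, so their order was nearly the same at each. The whole set moved, so that miR-23a, miR-23b-3p, miR-24-3p and miR-27b lay below 0 under TMM and above 0 with library size only at day 7.

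Between day 7 and day 14, 5 of the 8 names passed, 2 higher and 3 lower, while 52.8% of 246 names tested did (24.4% higher and 28.5% lower). The same number, 5, had groups without overlap, against 62.2% of the names tested. miR-24-3p rose by 0.94 (SE 0.11, adjusted p = 3.8e-04), although the value was 0.07 (adjusted p = 0.70) with library size only. miR-27a-5p rose by 1.33 (SE 0.15, adjusted p = 3.1e-04), with values of 0.47 when only library size was used and 2.55 when nothing was. miR-23b-5p fell by 2.75 (SE 0.30, adjusted p = 2.6e-04) and miR-24 by 1.25 (SE 0.27, adjusted p = 0.0065). With 3 to 5 reads in each CP_14 library, miR-23b-5p passed the filter through its CP_7 reads. Its call is therefore no support for a fall. miR-27a-3p fell by 0.46 (SE 0.14, adjusted p = 0.026), a call lost without CP_7 replicate 2 or 3 or without any CP_14 library (adjusted p between 0.053 and 0.13) and turned to 0.75 with no normalization. That call was also lost with upper-quartile factors (adjusted p = 0.090) and with factors from the names that passed the filter (adjusted p = 0.080), and the call of miR-24 with no normalization (-0.06, adjusted p = 0.89). The values were 0.22 (SE 0.098) for miR-23a, 0.18 (SE 0.12) for miR-23b-3p and -0.07 (SE 0.12) for miR-27b, with adjusted p of 0.094, 0.23 and 0.65. miR-23a passed with RLE factors (0.28, adjusted p = 0.030), DESeq2 (0.25, adjusted p = 0.015) and without CP_7 replicate 3 (0.37, adjusted p = 0.039), among other settings. With library size only miR-23a (-0.64, adjusted p = 0.0071), miR-23b-3p (-0.68, 0.012) and miR-27b (-0.93, 0.0022) passed as lower. With no normalization each passed as higher (1.44, 1.40 and 1.15).

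Over the whole course from day 0 to day 14, 3 of the 8 names passed, all lower, while 46% of the 250 names tested passed (24.8% higher and 21.2% lower). Groups did not overlap for 6 of the 8, against 56.4% of the names tested. miR-27a-5p fell by 1.74 (SE 0.062, adjusted p = 1.1e-06), and its guide had a value of -0.02 (SE 0.11, adjusted p = 0.90). miR-27b fell by 0.82 (SE 0.079, adjusted p = 1.5e-04). miR-23b-5p fell by 1.53 (SE 0.35, adjusted p = 0.010), and its value depended on the tool, with -2.31 from DESeq2. With 3 to 5 reads in each CP_14 library, it passed the filter through its CP_0 reads. Its call is therefore no support for a fall. miR-23a (-0.17), miR-23b-3p (-0.22), miR-24-3p (0.05) and miR-24 (0.52) had adjusted p of 0.084, 0.068, 0.60 and 0.060. Leaving out a CP_14 library brought miR-23b-3p (any of the 3, adjusted p between 0.014 and 0.048), miR-23a (replicate 2 or 3, adjusted p = 0.048 and 0.027) and miR-24 (replicate 3, adjusted p = 0.038) past the threshold. With upper-quartile factors miR-23a (-0.42, adjusted p = 0.0040), miR-23b-3p (-0.47, 0.0030), miR-24-3p (-0.21, 0.045) and miR-27a-3p (-0.27, 0.036) also passed as lower. All calls then split 50 higher and 91 lower, against 62 and 53 with TMM. miR-24 passed as higher with library size only (0.67, adjusted p = 0.042) and with no normalization (0.55, adjusted p = 0.019). The RMC comparisons share libraries with one another.

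Against CP_14, the chondrocytes differed in 6 of the 8 names, 4 higher and 2 lower, while 74.6% of 276 names tested differed (37.7% higher and 37% lower). Groups did not overlap for 5 of the 8, against 78.6% of the names tested. miR-27a-3p was lower in CC by a log2 value of -1.69 (SE 0.12, adjusted p = 1.5e-06), and 6.18% of the names tested had a lower value. miR-27a-5p was higher by 1.06 (SE 0.066, adjusted p = 6.9e-07), so the arms of the same hairpin differed in opposite directions, and its value was 0.35 when only library size was used and 2.00 when nothing was. miR-23b-5p was higher by 1.43 (SE 0.25, adjusted p = 6.3e-04). It had 3 to 5 reads in each CP_14 library and passed the filter through its CC reads. Its call is therefore no support for a difference. The value ran from 0.63 to 2.83 in the other settings, and only 4 of the fits without a single library could test this name. miR-27b was higher by 0.45 (SE 0.089, adjusted p = 0.0012) and miR-23b-3p by 0.28 (SE 0.078, adjusted p = 0.0091), but with library size only their values were negative (-0.26 and -0.43). miR-24-3p had a value of -0.21 (SE 0.071, adjusted p = 0.023) with overlapping groups, and lost its call without CP_14 replicate 1 or 2 or CC replicate 1 or 2 (adjusted p between 0.065 and 0.083), with upper-quartile factors (0.70) and with all 12 libraries in 1 fit (0.083). With no normalization its value was 0.72. The values were -0.07 for miR-23a (adjusted p = 0.40) and -0.32 for miR-24 (adjusted p = 0.11), and both passed without CP_14 replicate 3 (-0.15 with adjusted p = 0.0091 and -0.46 with adjusted p = 0.029). The methods name biological replicates of each tissue from several deer, while the labels do not say which animal or culture each library came from. The p-values measure the spread between these libraries.

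**Figure D5:**
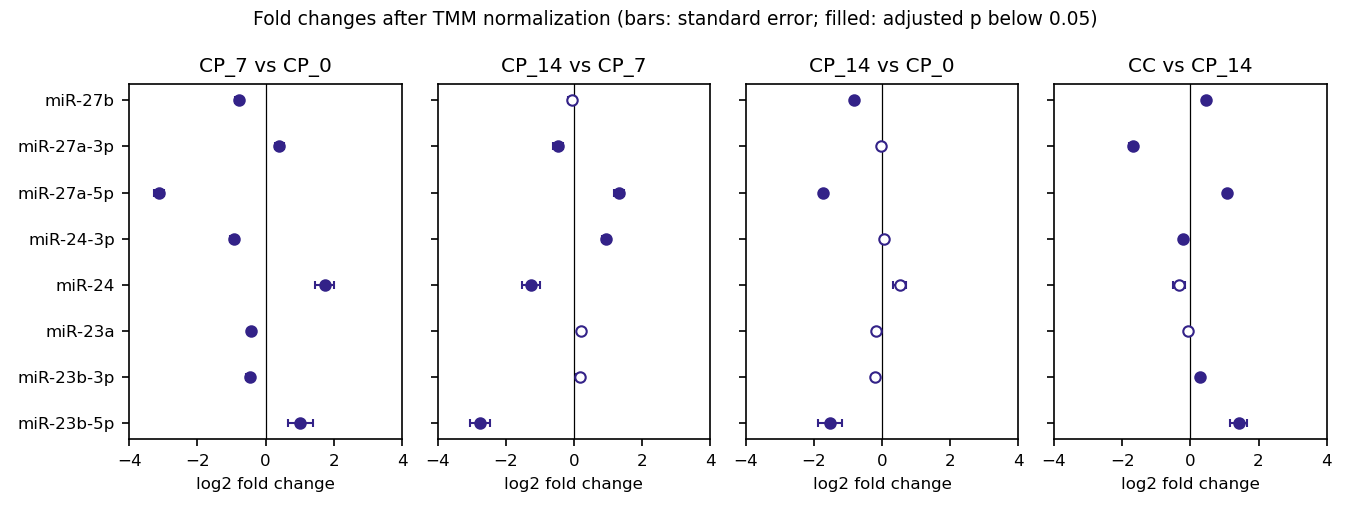
Log2 fold change after TMM normalization of the 8 names in the 4 comparisons. Bars are standard errors, filled points have an adjusted p below 0.05 and open points do not. miR-27a-5p and miR-27a-3p lay on opposite sides of 0 in CP_7 against CP_0, CP_14 against CP_7 and CC against CP_14. With no normalization the sign changed for miR-23b-5p and miR-27a-3p in CP_7 against CP_0, for miR-27a-3p and miR-27b in CP_14 against CP_7, and for miR-23a, miR-24-3p and miR-24 in CC against CP_14. With library size only it changed for miR-23a, miR-23b-3p, miR-24-3p and miR-27b in CP_7 against CP_0, for miR-23a and miR-23b-3p in CP_14 against CP_7, for miR-27a-3p in CP_14 against CP_0, and for miR-23b-3p and miR-27b in CC against CP_14. With upper-quartile factors it changed for miR-27b in CP_14 against CP_7, miR-24-3p in CP_14 against CP_0 and miR-23a in CC against CP_14.

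The profile of each guide over the 12 libraries was set beside those of the 172 other names with a mean of at least 50 reads. Over these libraries, which share 4 groups and their depth, the nearest names to miR-27a-3p were miR-2904 (r = 0.98), miR-2887 (r = 0.96) and miR-122 (r = 0.92). Nearest to miR-27b were miR-339a (r = 0.95), miR-449a (r = 0.92) and miR-1260b (r = 0.87). miR-24-3p was nearest to miR-3600 and miR-22-3p, followed by miR-200a (r = 0.97). miR-3600 and miR-22-3p had an equal r of 0.980028, so they may hold the same reads, which was not checked. miR-23a was nearest to miR-708 (r = 0.94), miR-411a (r = 0.93) and miR-193a-5p (r = 0.88), and miR-23b-3p to miR-497 (r = 0.94), miR-296-3p (r = 0.93) and miR-197 (r = 0.92). No name was shared by 2 of the guides. Among the guides, miR-23a and miR-24-3p had r = 0.87 and miR-27a-3p and miR-27b had r = -0.23.

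Other miRNAs known to act on RUNX2, the transcription factor of hypertrophic cartilage and bone, were taken as a list of 10 names. At day 7, 5 of them could be tested and 2 (40%) passed, against 63.8% of all names tested, with miR-133a rising by 2.20 (SE 0.24, adjusted p = 1.8e-04) and miR-34c falling by 4.19 (SE 0.82, adjusted p = 0.0031). From day 7 to day 14, 3 of 5 passed, 1 higher and 2 lower, against 52.8% of all names. From day 0 to day 14, 3 of 6 passed, 1 higher and 2 lower, against 46% of all names. In CC against CP_14 all 7 tested names passed, 3 higher and 4 lower, where 74.6% of all names did, with miR-218 higher by 1.16 (SE 0.11, adjusted p = 1.3e-05) and miR-30c by 0.94 (SE 0.094, adjusted p = 1.3e-05). The list thus had no single direction in these 4 comparisons. miR-133a is also a muscle name of the markers above, and miR-34c was at 16.5, 11.5 and 75.1 RPM in CP_0, with its high value in replicate 3. In CP_7 miR-34c had 4, 1 and 0 reads, near the limit that a count of 0 allows, so the size of its fall is uncertain.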

How the data were processed

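For each of 12 small RNA libraries the authors deposited RPM values of the listed miRNAs under a TPM header, which are reads per 1000000 reads on all listed names, with no division by length. Per the labels, the submitters' processing notes name Bowtie, CASAVA and bcl2fastq 1.8.4. Trimming, build and miRNA database are not given in the sources used for this report. Reads were recovered by dividing each value by that of 1 read, and 100% came out whole within 0.01 read. Libraries within a group differed beyond sampling noise (chi-square per degree of freedom at least 4.92).

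Pairs of groups were compared on their 6 libraries with limma 3.58.1 (intensity trend, R 4.3.3) on log2(RPM + 1) with TMM factors from all names (edgeR 4.0.16), after filterByExpr on the recovered reads (minimum count 10, minimum total 15). The tests were two-sided, with Benjamini-Hochberg adjustment over all names tested and a threshold of 0.05. Fold changes on this scale understate changes of names with few reads. Arm and letter ratios used log2 of reads + 0.5 and the exact permutation test. Arm pairs were -5p and -3p names of 1 hairpin, or 1 suffixed and 1 bare name. The arm of the bare names could not be checked against a sequence, so pairs with both arms named were also tested alone. Of 39 listed arm pairs, 21 reached a mean of 10 reads for the rarer arm. The letter pairs needed a mean of 50 reads each. The main limma fit and the exact permutation test were tried on simulated data. The limma fits on arm ratios and the alternatives were not. Named miRNAs were the 8 names, the 3 nearest of each guide and at most 4 of the RUNX2 list. The members and lists were chosen with earlier results of these data known. Alternatives were other scalings, DESeq2 1.42.0 and edgeR on the recovered reads, filters, pseudocounts, a replicate block, totals without miR-21-5p, letters summed and leaving out each library.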

Additional observations from a re-analysis of the deposited data

How the results depend on the processing

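The arm ratios and the letter ratios kept their calls in every alternative run: without each library the adjusted exact permutation p of miR-27a, miR-24 and miR-23b was at most 0.0026, and 11 to 17 arm pairs and 60 to 63 letter pairs passed. With only the 18 pairs whose arms are both named, 14 passed, which leaves out miR-24. Over the 8 names, miR-27a-5p kept all 4 calls in every scaling, tool and left-out library, while its size ran from -4.28 to -2.05 for CP_7 against CP_0, 0.47 to 2.55 for CP_14 against CP_7, -1.99 to -1.58 for CP_14 against CP_0 and 0.35 to 2.00 for CC against CP_14.

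Signs turned mainly with the scaling. With library size only, CP_7 against CP_0 gave 0.63 for miR-23a, 0.62 for miR-23b-3p, 0.14 for miR-24-3p and 0.28 for miR-27b. CP_14 against CP_7 gave -0.64 and -0.68 for miR-23a and miR-23b-3p, CP_14 against CP_0 gave 0.14 for miR-27a-3p, and CC against CP_14 gave -0.43 and -0.26 for miR-23b-3p and miR-27b. With no normalization, miR-23b-5p was -0.027 and miR-27a-3p -0.76 for CP_7 against CP_0, miR-27a-3p was 0.75 and miR-27b 1.15 for CP_14 against CP_7, and miR-23a, miR-24-3p and miR-24 were 0.86, 0.72 and 0.58 for CC against CP_14. Upper-quartile factors gave 0.071 for miR-27b (CP_14 against CP_7), -0.21 for miR-24-3p (CP_14 against CP_0) and 0.11 for miR-23a (CC against CP_14). Values near 0 also turned: miR-27b, CP_14 against CP_7, was 0.011 with all 12 libraries in 1 fit, 0.025 with factors from the names that passed the filter (chosen after seeing the data), and ran from -0.11 to 0.11 without single libraries. For CP_14 against CP_0, miR-27a-3p was 0.0063 with those factors and ran from -0.11 to 0.050, and miR-24-3p from -0.023 to 0.081, without single libraries. The cause was not tested.

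With library size only, the calls split 26 higher and 138 lower for CP_14 against CP_7 (60 and 70 with TMM), 76 and 33 for CP_14 against CP_0 (62 and 53), and 40 and 163 for CC against CP_14 (104 and 102). Requiring a 2-fold change as well left 76, 48 and 98 calls in these comparisons, against 130, 115 and 206. For CP_7 against CP_0 it left 109 of 157. Of the guides, only miR-27a-3p kept a call with it, for CC against CP_14. Without single libraries the counts of calls ran from 130 to 168 for CP_7 against CP_0, 89 to 137 for CP_14 against CP_7, 96 to 138 for CP_14 against CP_0 and 183 to 227 for CC against CP_14. Same-numbered libraries did not deviate together (correlations of their deviations from -0.29 to 0.13), so the numbers were not taken as pairs. With the replicate number as a block, 151, 100, 105 and 189 names passed in the order CP_7 against CP_0, CP_14 against CP_7, CP_14 against CP_0 and CC against CP_14, and the calls of miR-23b-5p at day 7 (adjusted p = 0.085), miR-27a-3p for CP_14 against CP_7 (adjusted p = 0.096) and miR-24-3p for CC against CP_14 (adjusted p = 0.065) were lost. Depth limits miR-23b-5p, with at most 44 reads in a library.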

Other observations

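Ratios between guides of one cluster, taken within a library, also moved between the groups. There were 1.60 ± 0.16 reads of miR-27a-3p per read of miR-23a in CP_0, 2.84 ± 0.21 in CP_7 and 1.76 ± 0.06 in CP_14, against 0.578 ± 0.086 in CC (SD, n = 3). In the other cluster there were 28.4 ± 1.6 reads of miR-27b per read of miR-23b-3p in CP_0, 22.4 ± 0.4 in CP_7 and 18.8 ± 0.5 in CP_14, against 21.2 ± 1.8 in CC. The miR-27a guide was therefore highest against its cluster partner in CP_7, and the miR-27b guide in CP_0. For miR-24-3p, which both clusters make, there were 2.41 ± 0.10 reads per read of miR-23a in CP_0, 1.71 ± 0.07 in CP_7 and 2.80 ± 0.06 in CP_14, against 2.53 ± 0.14 in CC. These ratios were not tested.

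In CP_0, CP_7 and CP_14 the reads of every guide varied less than the library totals did. miR-27a-3p had 14269, 14704 and 15018 reads in the CP_0 libraries, a coefficient of variation (CV) of 2.57%, while its RPM had a CV of 14.5% and the library totals 15.8%. In CP_14 it had 14123, 15281 and 14424 reads, with a CV of 4.11% against 16.6% for RPM. In CP_14 the reads varied less than the RPM for 6 of the 7 members with a mean of 50 reads, and for 43.1% of all 167 such names. In CP_0 this held for 4 of 7 members and 31.3% of 166 names, and in CP_7 for 5 of 7 and 18.9% of 143. In CC the library totals varied little (CV 2.72%) and the guides more, with a CV of 19.4% for the reads of miR-27a-3p, 14.7% for miR-27b and 10.6% for miR-24-3p. There the reads varied less than the RPM for 5 of 7 members and 54.9% of 193 names.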
